A study of Mus musculus with 12 samples.

Results

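The genes Traj58, Traj57, Traj56 and Traj53, written TRAJ58, TRAJ57, TRAJ56 and TRAJ53 as in the tables, are the 4 most 5' of the 43 Traj segments measured. They were chosen by their place under the T early alpha (TEA) promoter and not by any measured value, although earlier results of these data were known. They are called the TEA window here, and each is a column in all 12 tables. Rearranged T cell receptor alpha (Tcra) transcripts were profiled in preselection double-positive (DP) thymocytes, sorted as CD3e-negative cells from mice aged 4 to 6 weeks. Mice with a homozygous DPASE knockout (KO) were set against homozygous wild-type mice (WT), and each genotype was sampled at steady state and 24 h and 48 h after 1 mg of tamoxifen given intraperitoneally. Each of the 6 groups had 2 libraries. All mice of both genotypes carried the alleles TcrdCreER and Rosa26ZsG on a C57BL/6J background, with strain 129 sequence at the Tcra-Tcrd locus that bears TcrdCreER. The labels give the reporter as Rosa26ZsG/+ under genotype and as Rosa26ZsG/ZsG under strain. At 24 h and 48 h the ZsGreen-positive cells were sorted, so those libraries hold cells that had recombined the reporter, whereas the steady-state libraries were not sorted on it. Nothing in the labels ties a library to a single mouse; p-values therefore reflect spread among libraries that may be technical only.

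In DP thymocytes a Trav segment is joined to a Traj segment, and a joined allele can rearrange again with a Trav segment farther upstream and a Traj segment farther downstream. The TEA promoter lies upstream of the Traj array and drives germline transcription across its 5' end, where the first joins are directed, while a further promoter near TRAJ49 serves the segments just downstream. DPASE is known as an element that controls the neighbouring genes Rag1 and Rag2, which encode the recombinase that makes these joins. The Tcrd locus, from which CreER is expressed, lies between the Trav and Traj arrays and is deleted by a Trav to Traj join. The comparison of KO with WT cells asks how use of the first-served Traj segments differs without DPASE, and the labelling asks it at set times.

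The segments are shown because the results concern these 4 short coding elements. The sequences are from GENCODE M21 (plus strand of chromosome 14, build GRCm38), matched by name; all 43 Traj segments had one. Capitals mark the letters TTTGG, then 4 bases of any kind, then GG, which hold the Phe-Gly-X-Gly motif of a J segment when the first base opens a codon.
TRAJ58: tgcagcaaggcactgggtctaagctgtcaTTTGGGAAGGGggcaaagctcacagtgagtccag
TRAJ57: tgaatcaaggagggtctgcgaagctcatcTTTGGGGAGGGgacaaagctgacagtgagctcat
TRAJ56: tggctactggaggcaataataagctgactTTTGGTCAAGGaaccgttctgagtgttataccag
TRAJ53: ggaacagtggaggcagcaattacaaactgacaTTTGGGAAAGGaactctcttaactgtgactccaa
The motif was searched on both strands and stood on the forward strand of all 4, starting at base 30 in TRAJ58, TRAJ57 and TRAJ56 and at base 33 in TRAJ53. It occurred on the forward strand in 33 of all 43 Traj segments (76.7%) and on the reverse strand in 0. TRAJ58 lies at chr14:54157280-54157342, TRAJ57 at chr14:54158505-54158569, TRAJ56 at chr14:54159263-54159325 and TRAJ53 at chr14:54162644-54162709, each annotated as a T cell receptor joining gene. The sequence given for TRAJ57 has 63 bases, as do those of TRAJ58 and TRAJ56, and that of TRAJ53 has 66. The gaps between neighbours are 1162 bases from TRAJ58 to TRAJ57, 693 bases from TRAJ57 to TRAJ56 and 3318 bases from TRAJ56 to TRAJ53, and the next tabled segment, TRAJ52, follows after 2606 bases. The annotated pseudogenes TRAJ55 and TRAJ54 lie inside the window, and TRAJ59, TRAJ60 and TRAJ61 lie 5' of it; these have no column in the tables. The coordinates are those of the annotation, and no build is named for the tables themselves in the sources used here.

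The deposited values are fractions of a repertoire for each Trav-Traj pair, and every share below is a percent of its own table's total. Reads, molecules or clonotypes cannot be told apart as the unit counted, depth is unknown, and a share gives no amount of Tcra RNA; fewer cells with a join and less RNA per cell cannot be told apart. In 8 tables the fractions summed to 0.995 to 0.998. In the other 4, which were replicate 2 of KO and of WT at both labelled times, they summed to 1.97 to 1.99. In these 4, 77 to 164 pairs of the 4 segments stood at 0, against 11 to 24 in the 8. The pair markers of other cells were low in all 12 libraries: TRAV11-TRAJ18 of invariant NKT cells held 0% to 0.0462%, TRAV11D-TRAJ18 0% to 0.00498%, and TRAV1-TRAJ33 of MAIT cells 0% to 0.0503%. The 10 Trav segments with DV in their names, which can also rearrange as Trdv, held 22.1% to 37.3% of TEA-window pairs in the 4 tables and 18.5% to 20.0% in the 8; their part in the results was not tested. A Tcra repertoire holds no gene that defines the DP state or the genotype, so neither label could be checked.

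At steady state each of the 4 segments held a larger share in both KO libraries than in both WT libraries. TRAJ58 held 3.33% and 2.60% in KO and 2.48% and 1.94% in WT. TRAJ57 held 3.46% and 2.76% in KO and 2.41% and 1.94% in WT. TRAJ56, the most used of the 4, held 3.74% and 3.24% in KO and 2.90% and 2.45% in WT. The genotypes did not overlap for any of these, although for TRAJ58 the lower KO library stood only just above the higher WT library. TRAJ53, the most 3' of the 4, held 2.86% and 2.56% in KO and 2.07% and 1.81% in WT, also without overlap. Both KO libraries stood above both WT libraries in 46.5% of the 43 Traj segments at this sampling.

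Of these differences, 1 passed the test at steady state. A linear model over all 43 segments and 12 libraries was fitted with limma on log2(percent + 0.01), on which scale all fold changes here are given, and p-values were Benjamini-Hochberg adjusted over the 43 segments. TRAJ53 rose, with a log2 value of 0.48 (SE 0.16, adjusted p = 0.0463), and 9.3% of all Traj segments were called higher in KO. The values were 0.51 for TRAJ57 (SE 0.21, adjusted p = 0.0809), 0.42 for TRAJ58 (SE 0.26, adjusted p = 0.221) and 0.38 for TRAJ56 (SE 0.21, adjusted p = 0.186). Libraries with the same replicate number deviated together at steady state (r = 0.948 over the 43 segments). This pairing was taken from the same shares that were tested. With that number as a block TRAJ57 (adjusted p = 0.00339), TRAJ56 (adjusted p = 0.0117) and TRAJ53 (adjusted p = 0.0104) were called by limma, while TRAJ58 was not (adjusted p = 0.121). Of all segments, 34.9% were then called higher. The single call did not hold without any 1 of the 4 steady-state libraries, or of the KO 48 h libraries, where 0 were called. Within the 4 steady-state libraries alone, fitted after the data had been seen, all 4 were called. How many of all 43 segments were called in that fit was not counted.

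**Figure D1:**
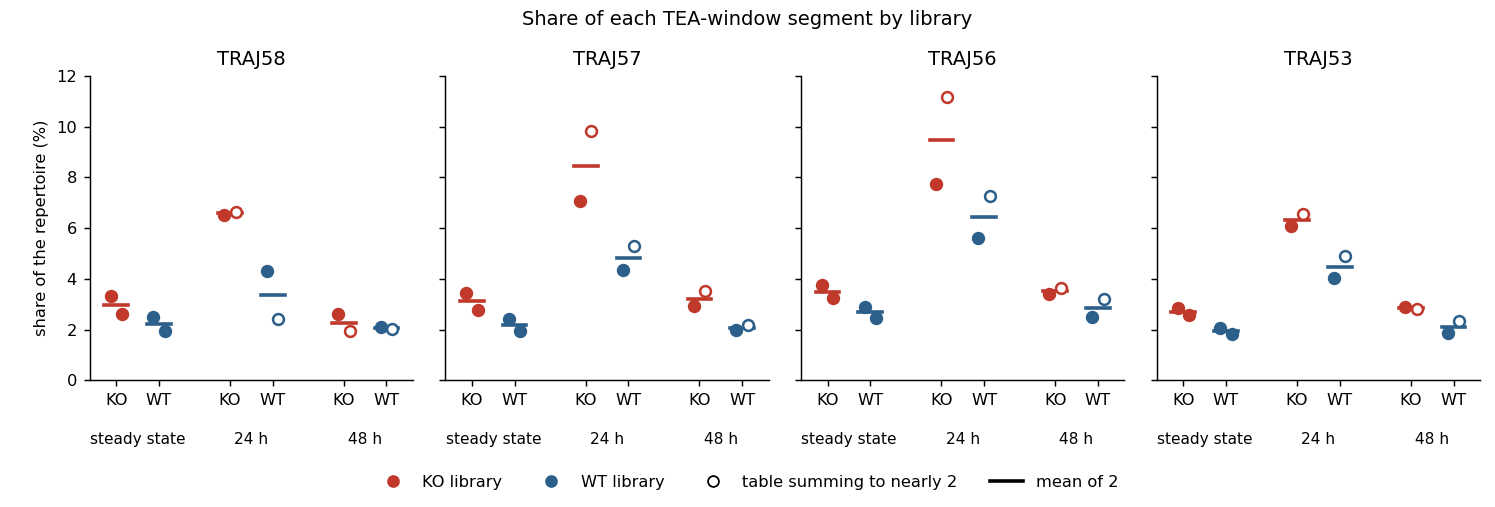
Share of the repertoire (%) held by TRAJ58, TRAJ57, TRAJ56 and TRAJ53 in each of the 12 libraries, with KO in red left of WT in blue at steady state, 24 h and 48 h; lines are means of 2 libraries and open circles mark the 4 tables that sum to nearly 2. All 4 segments have their highest group means at 24 h in both genotypes, where TRAJ56 reached 11.2% in a KO library, and only TRAJ58 at 48 h has a KO library below a WT one.

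At 24 h the 4 segments had their highest mean shares in both genotypes, and all 4 rose in KO relative to WT. TRAJ58 held 6.53% and 6.65% in KO and 4.31% and 2.44% in WT. Its KO libraries nearly coincided while its WT libraries were far apart, and the lower WT value belonged to a table summing to nearly 2. TRAJ57 held 7.05% and 9.84% in KO and 4.33% and 5.31% in WT. TRAJ56 held 7.76% and 11.2% in KO and 5.61% and 7.28% in WT. TRAJ53 held 6.08% and 6.56% in KO and 4.02% and 4.91% in WT. No segment overlapped between genotypes, and TRAJ56 came closest, with its lower KO library just above its higher WT library. Both KO libraries stood above both WT libraries in 14% of all Traj segments at 24 h.

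In the limma fit the log2 fold change at 24 h declined from the 5' to the 3' member of the window. It was 1.02 for TRAJ58 (SE 0.26, adjusted p = 0.00655), 0.80 for TRAJ57 (SE 0.21, adjusted p = 0.00686), 0.54 for TRAJ56 (SE 0.21, adjusted p = 0.0405) and 0.51 for TRAJ53 (SE 0.16, adjusted p = 0.0157). The differences between the 4 fold changes were not tested. This order was not kept without replicate 2 of both genotypes at the labelled times, where the values were 0.60 for TRAJ58, 0.70 for TRAJ57, 0.47 for TRAJ56 and 0.60 for TRAJ53, with the single library left in a group assumed to vary like those at steady state. Among all 43 segments 14% were called higher in KO and 58.1% lower. Only TRAJ58 was called without replicate 1 of WT at 24 h, and likewise without replicate 2 of KO at 24 h. The call of TRAJ56 was lost in 8 of the 12 fits that left out 1 library, also without any 1 of the 4 steady-state or the 2 KO 48 h libraries, and with array weights (adjusted p = 0.0761). The log2 fold change of TRAJ58 ran from 0.61 without WT replicate 2 to 1.43 without WT replicate 1. With the 4 libraries of 24 h alone, TRAJ58 and TRAJ57 were called, whereas TRAJ56 (adjusted p = 0.113) and TRAJ53 (adjusted p = 0.107) were not. The share of all segments called in that fit was not counted.

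The 24 h libraries also ordered the segments differently among all 43 by mean share. In KO, TRAJ56 was the most used Traj segment of all, with TRAJ57 at rank 3, TRAJ58 at rank 5 and TRAJ53 at rank 6. In WT, TRAJ49 led with 7.16%, TRAJ56 stood at rank 3, TRAJ57 at rank 6, TRAJ53 at rank 10 and TRAJ58 at rank 16. At steady state the ranks in KO were 10 for TRAJ56, 13 for TRAJ57, 16 for TRAJ58 and 18 for TRAJ53, against 15, 30, 28 and 33 in WT. At 48 h they were 14 for TRAJ56, 15 for TRAJ57, 16 for TRAJ53 and 18 for TRAJ58 in KO, against 12, 25, 24 and 27 in WT. TRAJ31 was the most used segment in both genotypes at steady state and at 48 h.

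At 48 h the shares of all 4 segments were near those of steady state, and TRAJ58 no longer separated the genotypes. TRAJ58 held 2.61% and 1.94% in KO and 2.10% and 2.02% in WT, with a KO library at either end of the range. TRAJ57 held 2.93% and 3.52% in KO and 1.96% and 2.18% in WT, the widest separation of the 4 at this time. TRAJ56 held 3.38% and 3.63% in KO and 2.51% and 3.19% in WT. TRAJ53 held 2.88% and 2.79% in KO and 1.88% and 2.32% in WT. Apart from TRAJ58, both KO libraries stood above both WT libraries, which held for 37.2% of all Traj segments.

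By limma, 2 of the 4 were called at 48 h, beside 27.9% of all segments called higher. TRAJ57 rose, with a log2 value of 0.63 (SE 0.21, adjusted p = 0.0212) and so did TRAJ53, with 0.44 (SE 0.16, adjusted p = 0.0297). TRAJ56 had 0.31 (SE 0.21, adjusted p = 0.217) and TRAJ58 0.13 (SE 0.26, adjusted p = 0.704). With the replicate block TRAJ56 was also called (adjusted p = 0.0173), beside 32.6% of all segments. None was called without replicate 1 of WT or without replicate 2 of KO at 48 h, and only TRAJ57 without replicate 1 of KO at 48 h.

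Averaged over the 3 samplings, all 4 segments were called higher in KO, beside 27.9% of all segments called higher and 51.2% called lower. The mean log2 fold change in the limma fit was 0.65 for TRAJ57 (SE 0.12, adjusted p = 0.000989), 0.52 for TRAJ58 (SE 0.15, adjusted p = 0.0103), 0.48 for TRAJ53 (SE 0.09, adjusted p = 0.00107) and 0.41 for TRAJ56 (SE 0.12, adjusted p = 0.0116). All 4 calls held with any 1 library left out. The median of the 4 was 0.50, against -0.21 over all 43 segments. Shares of a table add up, so a gain in some segments lowers the rest and a loss in some raises the rest. Shares cannot tell these apart. On a scale where each library's log2 shares were centred on their own mean, the median over all segments was 0.13 and that of the 4 was 0.84.

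**Figure D2:**
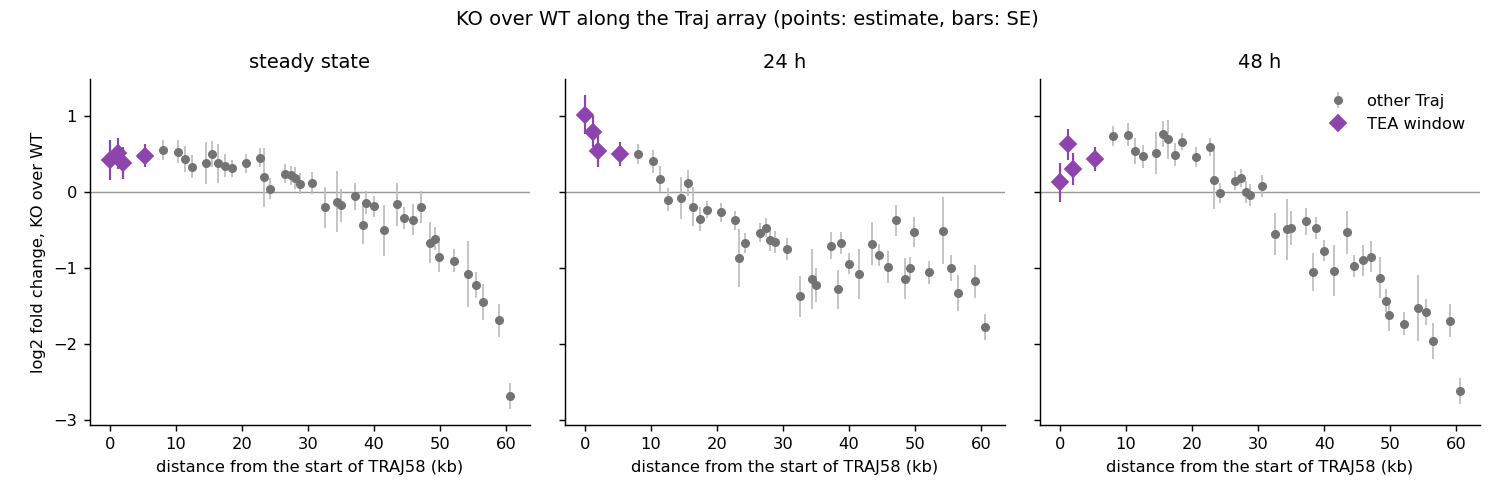
Log2 fold change of KO over WT (points, with SE as bars, from limma) for all 43 Traj segments against distance from the start of TRAJ58 in kb, at steady state, 24 h and 48 h; purple diamonds are the 4 TEA-window segments. The diamonds lie above 0 in all 3 panels, at medians of 0.45, 0.67 and 0.37, and at 24 h few other segments lie above 0, whereas at 48 h many segments just 3' of the window lie higher than TRAJ58.

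By counts of calls and by medians, the place of the 4 segments relative to their neighbours differed between samplings, which was not tested. At 24 h all 4 were called higher, while 2 of the 6 segments of the TRAJ49 window (TRAJ52, TRAJ50, TRAJ49, TRAJ48, TRAJ47 and TRAJ45) were called higher and 0 of the 5 segments from TRAJ44 to TRAJ39. The median log2 fold change was 0.67 in the TEA window and 0.15 in the TRAJ49 window, and -0.66 over all segments. At 48 h, 2 of the 4 were called higher, against 5 of 6 in the TRAJ49 window and 5 of 5 from TRAJ44 to TRAJ39, and the medians were 0.37 in the TEA window and 0.64 in the TRAJ49 window. At steady state 1 of 4 and 2 of 6 were called higher, with medians of 0.45 and 0.47. These counts depended on the fit. On the centred scale the TEA window had 1, 4 and 3 of 4 called higher at steady state, 24 h and 48 h. The TRAJ49 window then had 4, 4 and 6 of 6, beside 11, 8 and 19 of all 43 segments. With the replicate block the counts were 3, 4 and 3 in the TEA window and 6, 2 and 6 in the TRAJ49 window, beside 15, 6 and 14. All 7 segments from TRAJ11 to TRAJ2 had negative fold changes at each sampling, with 6, 6 and 7 called lower at steady state, 24 h and 48 h, beside 16.3%, 58.1% and 37.2% of all segments.

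Between the later and the earlier labelled cells all 4 segments fell in both genotypes, although the fall of TRAJ58 in WT was called in only 7 of the 12 fits that left out 1 library. In KO the log2 change of 48 h against 24 h in the limma fit was -1.54 for TRAJ58, -1.37 for TRAJ57, -1.41 for TRAJ56 and -1.15 for TRAJ53, with adjusted p-values from 7.81e-05 to 0.000276. In WT it was -0.65 for TRAJ58 (adjusted p = 0.0436), -1.21 for TRAJ57, -1.17 for TRAJ56 and -1.08 for TRAJ53, the last 3 with adjusted p-values from 0.000127 to 0.000533. Among all segments 18.6% were called lower at 48 h in KO and 25.6% in WT. The WT change of TRAJ58 ran from -1.06 without replicate 2 of WT at 24 h to -0.24 without replicate 1, where its adjusted p was 0.336. It was also not called without either KO library of 24 h, without either WT library of 48 h, or with array weights (adjusted p = 0.0649). The 2 contrasts share no library, but both rest on a spread estimated over all 12.

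Whether the genotype difference itself varied between samplings was tested as an interaction in limma. The KO minus WT difference at 24 h exceeded that at steady state by 0.60 for TRAJ58, 0.28 for TRAJ57, 0.16 for TRAJ56 and 0.02 for TRAJ53 on the log2 scale. Of the 4, 0 were called (adjusted p = 0.237 to 0.913), beside 2.33% of all segments called higher and 30.2% lower. At an unadjusted p under 0.05 there were 0 of the 4, against 18 of all 43 segments. At 48 h the difference was below that at 24 h by 0.89 for TRAJ58 (log2 -0.89, SE 0.37, adjusted p = 0.0877). The other 3 changed by -0.16 for TRAJ57, -0.23 for TRAJ56 and -0.07 for TRAJ53. Again 0 of the 4 were called, beside 23.3% of all segments called higher and 6.98% lower. At an unadjusted p under 0.05 there was 1 of the 4, against 19 of all 43 segments. With the replicate block TRAJ58 was called (adjusted p = 0.0388), beside 16.3% of all segments. Without replicate 2 of both genotypes at 24 h and 48 h its value was -0.29 (adjusted p = 0.367).

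Summed over the 4 segments, the TEA window held 13.4% and 11.2% of the KO repertoire at steady state, against 9.86% and 8.14% in WT. At 24 h it held 27.4% and 34.2% in KO, against 18.3% and 19.9% in WT. At 48 h it held 11.8% and 11.9% in KO, against 8.46% and 9.71% in WT. In the order steady state, 24 h and 48 h, the KO means were 12.3% ± 1.58, 30.8% ± 4.80 and 11.8% ± 0.0492, against 8.998% ± 1.22, 19.1% ± 1.17 and 9.08% ± 0.888 in WT (SD, n = 2 each). No sampling had an overlap, so KO was necessarily higher in 6 of 6 pairs of libraries with the same replicate number. The mean KO minus WT difference was 5.92 percentage points in an exact two-sided permutation test of genotype within sampling (p = 0.00926, the smallest the arrangements can give, and 0.102 after adjustment over 11 measures). With replicate numbers kept paired the exact permutation p was 0.03125, also the smallest possible, and 0.0859 adjusted. Both smallest values follow from the same lack of overlap, so the paired one adds no separate support.

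**Figure D3:**
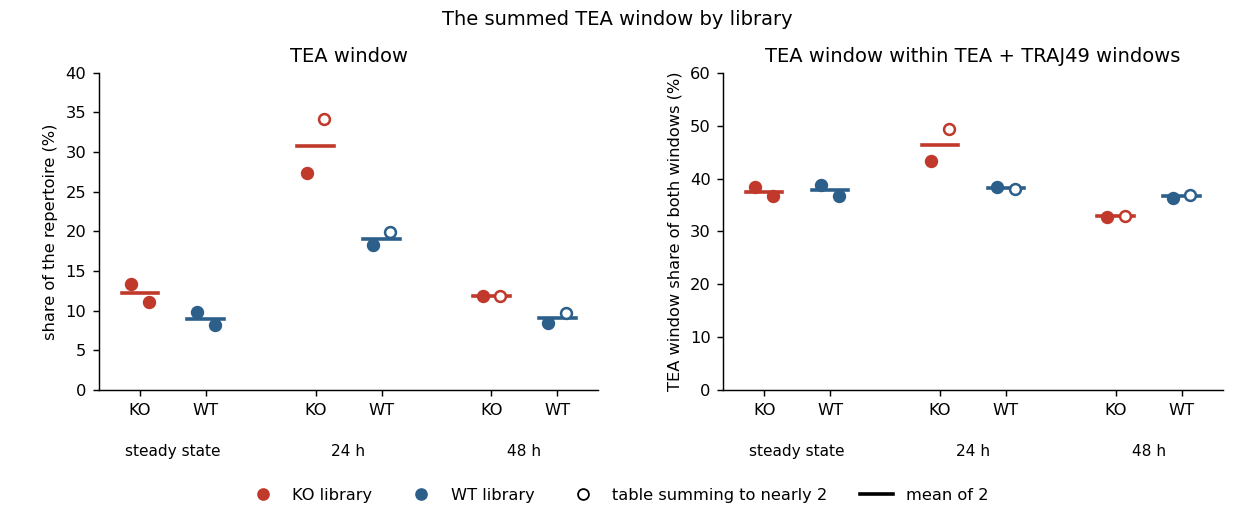
Left, share of the repertoire (%) held by the summed TEA window; right, TEA-window share (%) of the TEA and TRAJ49 windows combined; points are libraries (KO left of WT), lines are means of 2 and open circles are tables summing to nearly 2. KO stands above WT at all 3 samplings on the left, whereas on the right KO libraries stand at 43.3% and 49.3% at 24 h, above WT, and at 32.8% and 32.9% at 48 h, below WT.

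Relative to the neighbouring TRAJ49 window the genotypes changed places between 24 h and 48 h. The TEA window made up 38.3% and 36.7% of both windows together in KO at steady state, against 38.8% and 36.7% in WT, and the genotypes overlapped. At 24 h it made up 43.3% and 49.3% in KO, against 38.4% and 38.1% in WT. At 48 h it made up 32.8% and 32.9% in KO, against 36.4% and 36.9% in WT. The 4 WT libraries of the labelled cells thus lay within a narrow band, with both KO libraries above it at 24 h and both below it at 48 h. The KO minus WT difference at 24 h exceeded that at 48 h by 11.9 percentage points (exact permutation p = 0.0556, the smallest that 36 arrangements allow). This comparison was picked out of those of all 11 measures between the samplings, and its p is not adjusted for them. Averaged over samplings the difference was 1.32 percentage points (exact permutation p = 0.509), and 0.313 without replicate 2 of KO at 24 h to 2.33 without replicate 1 of KO at 24 h.

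The 4 segments divided the window in proportions between 12.2% and 36.5% in single libraries, with TRAJ58 at the low end and TRAJ56 at the high end, both in WT replicate 2 at 24 h. TRAJ57 made up 25.8% and 24.7% of the window in KO at steady state, against 24.5% and 23.8% in WT, then 25.7% and 28.8% in KO, against 23.7% and 26.6% in WT, at 24 h, and 24.8% and 29.6% in KO, against 23.2% and 22.5% in WT, at 48 h. It was higher in KO in 6 of 6 pairs, with overlap at 24 h, by a mean of 2.52 percentage points (exact permutation p = 0.0370, adjusted 0.136). TRAJ56 was lower in KO in 6 of 6 pairs, by a mean of -2.02 percentage points (exact permutation p = 0.139, adjusted 0.382; paired by replicate number p = 0.03125, adjusted 0.0859). This value ran from -2.98 without replicate 1 of WT at 24 h to -1.06 without replicate 2 of WT at 24 h. The mean differences of TRAJ58 and TRAJ53 were -0.0956 and -0.406 percentage points (exact permutation p = 0.944 and 0.713). The TRAJ58 proportion was lowest, at 12.2%, in WT replicate 2 at 24 h and next lowest, at 16.4%, in KO replicate 2 at 48 h, and both tables sum to nearly 2.

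The 4 segments resembled one another and the segments next to them in their course over the 12 libraries. As a description, the mean absolute difference between 2 centred log2 profiles was 0.0923 for TRAJ56 and TRAJ53, 0.118 for TRAJ57 and TRAJ56 and 0.128 for TRAJ57 and TRAJ53, whereas TRAJ58 lay 0.263 to 0.303 from the other members. Of the 39 other Traj segments, the profiles nearest to that of the summed window were those of TRAJ52 at 0.109, TRAJ50 at 0.202, TRAJ49 at 0.207, TRAJ48 at 0.235 and TRAJ45 at 0.307. These 5 are the next segments downstream that belong to the TRAJ49 window, of which only TRAJ47 is missing. All points share their libraries, table totals and the 4 tables that sum to nearly 2.

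The Trav partners of the 4 segments came mostly from the end of the V array nearest to the Traj segments. The 85 Trav segments listed in any table were ranked along chromosome 14 and split into a distal zone (28, Trav1 to Trav9d-3), a central zone (28, Trav12d-3 to Trav12-1) and a proximal zone (29, Trav13-1 to Trav21-dv12). Proximal segments made up 66.2% and 65.0% of TEA-window pairs in KO at steady state, against 65.4% and 64.4% in WT. They made up 67.5% and 66.3% in KO, against 66.8% and 68.4% in WT, at 24 h, and 66.5% and 69.0% in KO, against 64.6% and 70.0% in WT, at 48 h. The 12 values lay within a narrow band in which the genotypes overlapped at each sampling. The mean KO minus WT difference was 0.156 percentage points (exact permutation p = 0.852, adjusted 0.944), and for distal partners it was 0.332 (exact permutation p = 0.907, adjusted 0.944). Leaving out 1 library moved the proximal difference between -0.746 and 1.06 percentage points.

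Pairs of the other 39 Traj segments as a pool varied more in this composition. Their proximal share was 41.8% and 37.4% in KO at steady state, against 34.5% and 29.5% in WT, then 61.6% and 66.4% in KO, against 55.8% and 64.0% in WT, at 24 h, and 47.1% and 55.3% in KO, against 34.05% and 46.2% in WT, at 48 h. In the same library the TEA window exceeded the other segments by a mean of 18.9 percentage points, with a range of -0.0393 to 34.9. The window was higher in 11 of 12 libraries, and the exception was KO replicate 2 at 24 h. An exact two-sided permutation test of the 2 values within each library gave p = 0.000977, and the same value after adjustment over 2 measures. The TRAJ49 window, the nearest neighbour, lay between them in every library except KO replicate 2 at 24 h. Its proximal share was 55.9% and 54.2% in KO at steady state, against 55.3% and 53.8% in WT, then 63.1% and 66.5% in KO, against 60.03% and 67.1% in WT, at 24 h, and 55.6% and 66.4% in KO, against 53.9% and 65.5% in WT, at 48 h. The genotypes overlapped there at each sampling too, and in KO replicate 2 at 24 h its 66.5% stood above the TEA window's 66.3%. The difference between these windows was not tested.

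**Figure D4:**
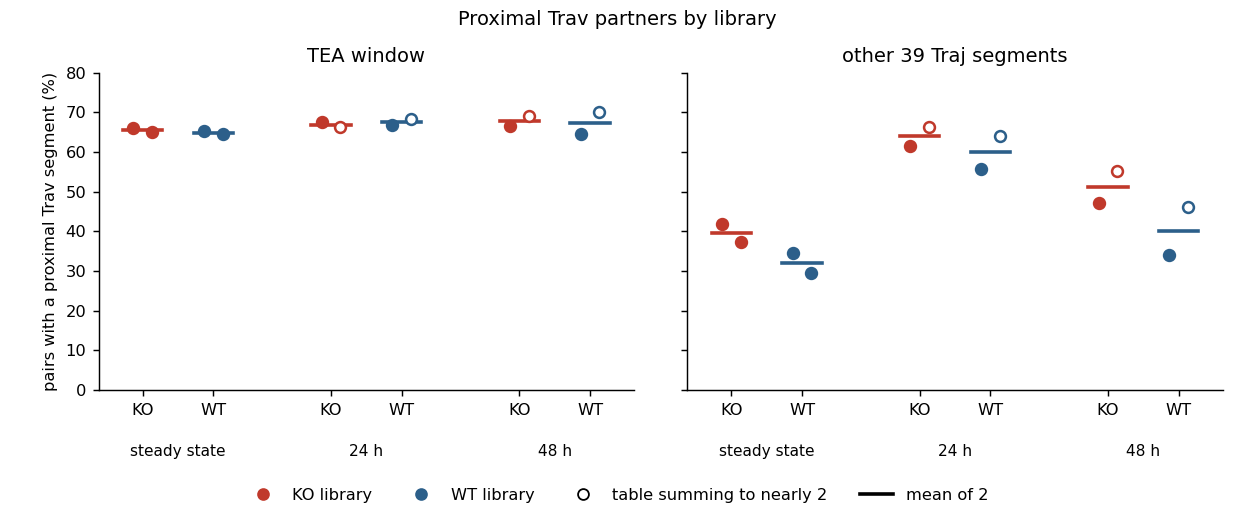
Share (%) of pairs with a proximal Trav segment among TEA-window pairs (left) and pairs of the other 39 Traj segments (right), per library with KO left of WT; lines are means of 2 and open circles are tables summing to nearly 2. The TEA-window values stay between 64.4% and 70.0% in all 12 libraries, while those of the other segments run from 29.5% to 66.4% and are highest at 24 h.

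By mean Trav rank, counted from Trav1 to the proximal end, TEA-window pairs averaged 59.5 and 59.2 in KO and 58.9 and 58.9 in WT at steady state. They averaged 60.4 and 58.7 in KO and 60.01 and 60.3 in WT at 24 h, and 59.7 and 60.2 in KO and 58.9 and 59.7 in WT at 48 h. The genotypes differed by a mean of 0.174 ranks (exact permutation p = 0.657). The window stood above the other segments in 12 of 12 libraries, by a mean of 9.59 ranks (exact permutation p = 0.000488, adjusted 0.000977). This gap was 11.7 and 13.7 ranks in KO at steady state, against 15.4 and 17.98 in WT, and it was lower in KO in 6 of 6 pairs over the samplings, by a mean of -3.76 ranks (exact permutation p = 0.0185, adjusted 0.102). It was smallest at 24 h, at 3.33 and 0.684 ranks in KO, against 5.67 and 3.05 in WT, and at 48 h it was 9.53 and 7.31 in KO, against 15.1 and 11.6 in WT.

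In the 8 tables that sum to nearly 1, the proximal share declined from TRAJ58 through TRAJ57 and TRAJ56 to TRAJ53 in each library. In the other 4 this order was broken, and TRAJ53 exceeded TRAJ58 in 3 of them: 68.8% against 66.3% in KO replicate 2 at 24 h, 69.8% against 65.9% in KO replicate 2 at 48 h and 69.9% against 67.0% in WT replicate 2 at 24 h. Over the 12 libraries proximal Trav segments made up a mean of 69.8% of TRAJ58 pairs, 68.6% of TRAJ57 pairs, 65.7% of TRAJ56 pairs and 62.6% of TRAJ53 pairs, against 47.8% of pairs of the other segments. Central partners ran the other way, with 14.1%, 16.4%, 18.6% and 20.8% from TRAJ58 to TRAJ53. In single libraries the proximal share of TRAJ57 pairs ran from 64.8% to 78.8%, a spread wider than the steps between neighbours. These means are a description over libraries of all 6 groups.

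Named partners were shared among the 4 segments. TRAV21/DV12, the Trav segment nearest to the Traj array, led the partners of TRAJ58 with a mean of 9.40% and those of TRAJ57 with 7.84%, and was the third of TRAJ56 with 5.21%. TRAV14-3 was among the first 3 partners of all 4, with 5.87% of TRAJ58, 6.65% of TRAJ57, 6.57% of TRAJ56 and 7.39% of TRAJ53. The list was completed by TRAV14-1 with TRAJ58 (5.99%), TRAV15-2/DV6-2 with TRAJ57 (4.77%), TRAJ56 (5.35%) and TRAJ53 (4.98%), and TRAV4-4/DV10 with TRAJ53 (4.35%). The 10 leading partners held 43.8% of TRAJ58 pairs, 43.6% of TRAJ57, 40.7% of TRAJ56 and 39.1% of TRAJ53, with 9 or 10 of them proximal, against 33.4% and 7 of 10 for the other segments.

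The ranking of these partners depended on the 4 tables summing to nearly 2. TRAV15-2/DV6-2 held 9.91% and 12.02% of TEA-window pairs in KO replicate 2 at 24 h and 48 h, against 7.77% and 22.2% in WT replicate 2 at those times, and 0.731% to 1.02% in the 8 other libraries. The pairs of the other 39 Traj segments showed the same split, with 10.3% to 17.9% in the 4 tables and 0.541% to 1.14% in the 8. TRAV14-3 was also higher there, at 9.52% and 11.3% in KO and 12.9% and 8.26% in WT, against 4.22% to 5.16% in the 8. TRAV21/DV12 was lower there, at 3.41% and 3.60% in KO and 3.03% and 3.21% in WT, against 7.16% to 8.70% in the 8. The split ran by replicate number within both genotypes, and its cause was not tested.

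**Figure D5:**
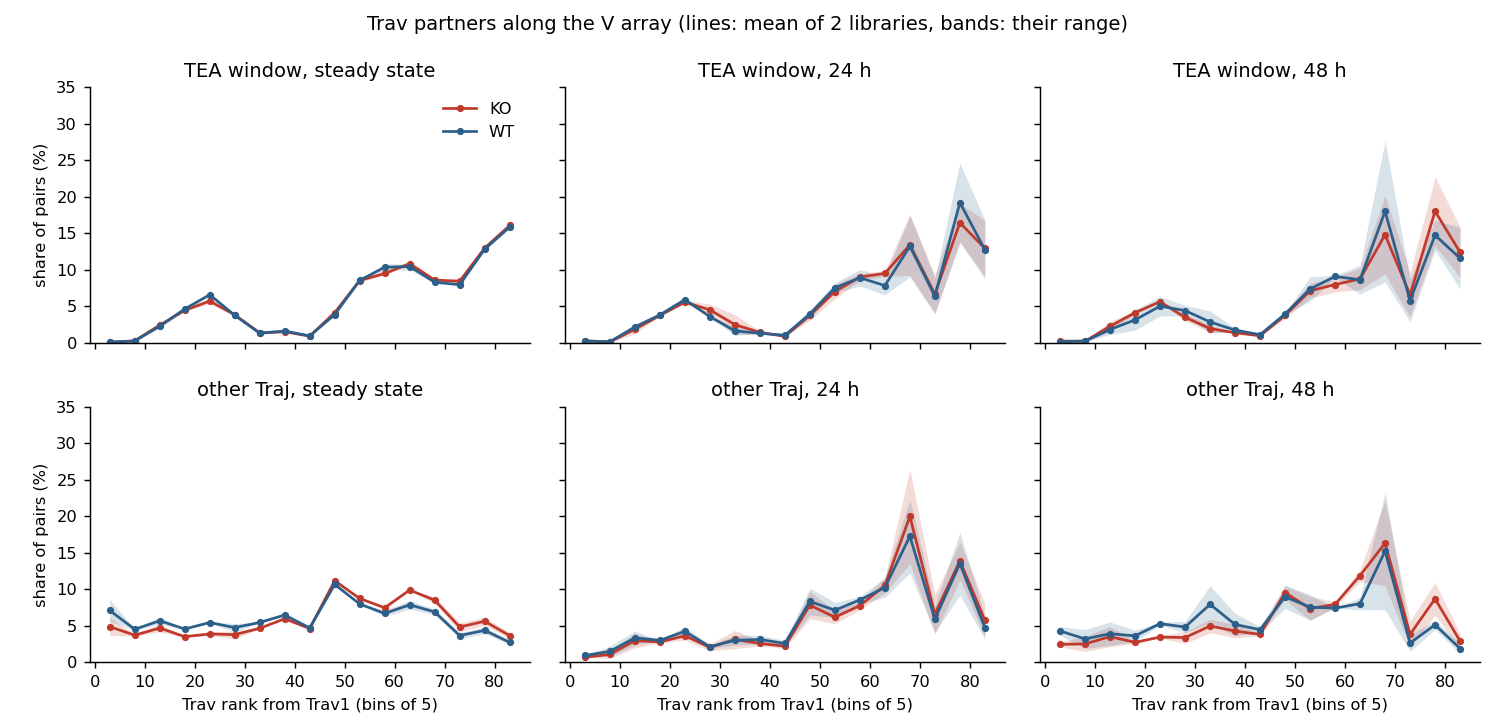
Share (%) of pairs by Trav rank from Trav1, in bins of 5 ranks, for TEA-window pairs (top) and pairs of all other Traj segments (bottom) at steady state, 24 h and 48 h; lines are means of 2 libraries (KO red, WT blue) and bands their range. At steady state the TEA-window curves of KO and WT nearly coincide and end at 16.1% and 15.9% in the bin of ranks 81 to 85, against 3.67% and 2.75% for the other segments.

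Along the V array TEA-window pairs had a main body at the proximal end and a smaller one upstream. At steady state the bin of ranks 81 to 85 held 16.1% of window pairs in KO and 15.9% in WT, against 3.67% and 2.75% of pairs of the other segments. The bin of ranks 41 to 45 held only 0.931% in KO and 0.972% in WT, and the bin of ranks 21 to 25 held 5.74% in KO and 6.61% in WT. In the distal zone, Trav segments whose names carry the suffix D made up 96.7% to 99.3% of the partners of the window. These segments come from duplications within the array and closely resemble segments farther downstream, so that reads can be hard to assign between copies. The 7 distal segments without the suffix, Trav1, Trav2, Trav3-1, Trav5-1, Trav6-1, Trav7-1 and Trav6-2, held 0.103% to 0.538% of window pairs, against 0.950% to 10.5% of pairs of the other segments. How the authors resolved near-identical Trav segments is not given in the sources used here, so the distal share of the window is uncertain.

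The number of partners in effective use was summarised by the inverse Simpson number, which is the count of equally used Trav segments that would give the same concentration. For the TEA window it was 36.4 and 35.9 in KO at steady state, against 36.4 and 34.6 in WT, and 35.1 and 26.3 in KO at 24 h, against 34.6 and 23.9 in WT. At 48 h it was 36.9 and 20.999 in KO, against 36.7 and 13.95 in WT. The lower value in each labelled group belonged to a table that sums to nearly 2. The mean KO minus WT difference was 1.89 (exact permutation p = 0.565). At steady state the other segments had 52.8 and 54.7 in KO and 56.5 and 56.3 in WT, above the window. At 24 h they had 40.1 and 21.9 in KO and 43.8 and 26.3 in WT, so that in KO replicate 2 they stood below the window. At 48 h they had 50.6 and 27.7 in KO and 55.4 and 19.3 in WT.

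No single pair of the window passed the test. Of the 3397 pairs of all Traj segments with the 79 Trav segments found in every table, 316 join a TEA-window segment, and 0 of these 316 were called by limma at any sampling or in the average, where 0% of all pairs were called higher in KO and 0.294% (steady state), 0% (24 h and 48 h) and 1.09% (average) lower. At an unadjusted p under 0.05 there were 2 of the 316 at steady state, 32 at 24 h, 18 at 48 h and 50 in the average, all higher in KO except 1 at 48 h. Among all 3397 pairs the counts were 211, 187, 510 and 533 in that order. Those higher in KO made up 0.633%, 10.1%, 5.38% and 15.8% of the window's pairs, against 0.147%, 1.32%, 5.53% and 4.03% of all pairs. The log2 fold change was above 0 in 281 of the 316 pairs at steady state, 257 at 24 h, 226 at 48 h and 274 in the average. Among all 3397 pairs it was above 0 in 54.6%, 28.4%, 46.8% and 40.3%. Pairs of 1 segment share that segment's total, so these counts are not independent of the segment shares. By segment, the 24 h count was 13 for TRAJ58, 11 for TRAJ57, 5 for TRAJ56 and 3 for TRAJ53, of 79 pairs each.

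The pair TRAV14-1 with TRAJ58 is given as an example, chosen after its values were seen because this partner held a steady 5.18% to 7.02% of TRAJ58 pairs in all 12 libraries. It held 0.356% and 0.417% of the KO repertoire at 24 h, against 0.266% and 0.148% in WT. At steady state it held 0.209% and 0.147% in KO, against 0.174% and 0.124% in WT, and at 48 h 0.135% and 0.110% in KO, against 0.129% and 0.113% in WT. The KO libraries lay above the WT libraries at 24 h and overlapped them at the other samplings. The log2 fold change at 24 h was 0.92 (SE 0.33, limma adjusted p = 0.788 over 3397 pairs).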

How the data were processed

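Tcra repertoires of 12 mouse libraries were read from 12 deposited tables, 1 per library. Per the labels' protocols, total RNA was extracted with Trizol and Tcra transcripts were amplified by template-switch RACE with an antisense Trac primer. The values deposited by the authors are fractions of the repertoire per Trav-Traj pair, per the file headers and the values; no source used here gives the aligner, genome build, unit counted or depth, so no counting interval was computed. Each value was divided by its own table's total, since 4 tables summed to nearly 2, and pair shares were summed per Traj segment. With 1 mean per group, limma 3.58.1 (R 4.3.3) was fitted to log2(percent + 0.01) over all 12 libraries, with Benjamini-Hochberg adjustment at 0.05 over 43 Traj segments or over 3397 pairs (79 shared Trav segments); this scale understates changes of low shares. A measure with 1 number per library was tested by exact two-sided permutation of genotype within sampling (11 measures) in Python 3.11.15; within 1 sampling, 2 against 2 libraries were not tested. Trav segments were ranked by GRCm38 start, 83 from GENCODE M21 and Trav13-5 from the RefSeq GRCm38.p6 table, while TRAV9-3 was placed by its row in the tables. Whether the strain 129 sequence at the locus matches GRCm38 in segment order and in the printed sequences was not checked. Fits were tested on simulated data.

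Samples were grouped by their titles and labels. Replicate numbers were taken as pairs because the deviations of same-numbered KO and WT libraries from their group means correlated over the 43 segments with r = 0.948 (steady state), 0.666 (24 h) and 0.415 (48 h). Alternatives were the replicate block, other pseudocounts, filters on low shares, a centred scale, the shared Trav segments as the total, array weights, leaving out each library, and leaving out the 4 tables summing to nearly 2. All 4 segments are named in each comparison; partners named are the 3 with the highest mean share of each segment, and like profiles are the 5 nearest to the summed window. The members and lists were chosen with earlier results of these data known.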

Additional observations from a re-analysis of the deposited data

Results flagged for a closer look

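The genotype difference of TRAJ58 varied between the 2 times after labelling when replicate numbers entered as a block: the KO minus WT log2 difference at 48 h less that at 24 h was -0.89 (limma adjusted p = 0.0388 with the block and 0.0877 without it). It was noted because the test of that difference passed with the block, beside 16.3% of all segments called lower. Without the block it did not pass. The pairing was taken from the same shares that were tested, and its correlation at 48 h was only r = 0.415. At 24 h and 48 h, replicate 2 of each genotype is also the table summing to nearly 2. The block and that trait cannot be told apart there. TRAJ58 held 2.44% in WT replicate 2 at 24 h, a table summing to nearly 2, against 4.31% in WT replicate 1, and without replicate 2 of both genotypes at 24 h and 48 h the value was -0.29 (adjusted p = 0.367). The part of this table in the result was not tested further.

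The TEA-window share of the TEA and TRAJ49 windows together lay above WT in both KO libraries at 24 h and below WT in both at 48 h. The KO minus WT difference at 24 h exceeded that at 48 h by 11.9 percentage points (exact permutation p = 0.0556, the smallest that 36 arrangements allow), so this design cannot pass 0.05. It was noted because the KO minus WT difference had opposite signs at the 2 times. It was picked out in this way from the comparisons of all 11 measures between the samplings, and its p is not adjusted for them.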

How the results depend on the processing

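The number of the 4 segments called at steady state, 1, became 3 with the replicate block and 2 with array weights. It became 4 with the libraries of that sampling alone, an alternative chosen after seeing the data, which gave 2 in place of 4 at 24 h. Leaving out replicate 2 of both genotypes at 24 h and 48 h takes the spread from the same steady-state libraries. For the steady-state comparison it is therefore not a separate result. For the change of the genotype difference from 24 h to 48 h, the count of 0 became 1 on the centred scale. It was likewise 1 with the replicate block. Of all 43 segments, centring gave 5 called lower and 5 called higher for this change. The block gave 7 called lower and 21 called higher. Called pairs of the window in the average, 0, became 5 with a pseudocount of 0.1% and 1 with the replicate block. The block changed no other count of called segments or pairs by over 1.5 times. With array weights and in the fits on fewer libraries, the share of all segments called was not counted. For pairs, the share called over all 3397 was not counted in any alternative fit or with 1 library left out. Without replicate 2 at 24 h and 48 h, as values only, the TRAJ53 share of the window differed by 0.971 and the distal partner share by -0.830 percentage points, and the 48 h less 24 h difference of TRAJ53 was 0.0182 on the log2 scale.

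Leaving out 1 library at a time gave 0 to 1 called segments at steady state, 1 to 4 at 24 h, 0 to 2 at 48 h and 0 to 1 for the difference between 48 h and 24 h, and 3 to 4 for the change with time in WT. The averaged comparison and the change with time in KO gave 4 each time. Called pairs ran from 0 to 10 at 48 h and from 0 to 5 in the average. The KO minus WT difference ran from -1.99 to 1.80 percentage points for the TRAJ58 share of the window, from -2.98 to -1.06 for TRAJ56, from -0.909 to 0.0973 for TRAJ53, from 0.313 to 2.33 for the TEA-window share of the TEA and TRAJ49 windows, from -0.746 to 1.06 for proximal and from -0.617 to 1.28 for distal partners, from -0.104 to 0.453 for the mean Trav rank and from -1.91 to 5.69 for the inverse Simpson number. The log2 fold change of TRAJ58 at 48 h ran from -0.0842 to 0.34. The excess of 24 h over steady state ran from -0.10 to 0.42 for TRAJ56 and from -0.12 to 0.17 for TRAJ53, and that of 48 h over 24 h from -0.40 to 0.0760 for TRAJ57, from -0.50 to 0.0285 for TRAJ56 and from -0.22 to 0.0848 for TRAJ53. The causes were not tested. With 2 libraries a group and unknown depth, small shares and single pairs are the least certain, most of all in the 4 tables with many pairs at 0.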
